A study of Mus musculus with 9 samples.

Results

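The comparison is between splenic type 2 conventional dendritic cells (cDC2s) that lack Gα13 and wild-type (WT) cDC2s, across all genes with at least 1 CPM (counts scaled to library size) in 3 or more of the 6 libraries, a rule that kept 12020 of the 14209 genes listed. Gα13, the product of Gna13, is the alpha subunit of a heterotrimeric G protein of the G12 family. It was removed with CD11c-Cre on Gna13fl/fl alleles, and 3 libraries of these mice were set against 3 WT libraries. All mice were C57BL/6, and the cells came from spleen. The series also holds 3 libraries from Adgre5-/- (CD97-deficient) mice, which were left out of the fit. The sources used here do not give the ages of the mice, the sort of the cells or whether WT mice carried the Cre transgene, so the loss of Gα13 and the presence of the transgene cannot be told apart. The promoter of CD11c (Itgax) is active in most dendritic cells and in some macrophages, so the deletion need not be limited to cDC2s of the spleen. The genotype text of the Gα13-deficient libraries also names Adgre5 deficiency, while their titles and the series design keep the genotypes apart. The labels tie no library to an individual mouse. The p-values therefore describe spread from library to library, and part of that spread may be technical.

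Receptors coupled to Gα13 exchange its GDP for GTP, and GTP-bound Gα13 recruits the RhoGEFs Arhgef1, Arhgef11 and Arhgef12, which load the small GTPase RhoA. RhoA acts through the ROCK kinases and formins on actomyosin and, by way of actin, on the MRTF coactivators of the transcription factor SRF. cDC2s present antigen mainly to CD4 T cells, and in the spleen their positioning depends on adhesion and on chemoattractant receptors. A part of them matures even without infection, which brings Ccr7, the receptor that guides dendritic cells to T cell zones, and costimulatory ligands.

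Library totals ran from 5679946 to 13904646 counts, and 3 counts corresponded to 0.216 to 0.528 CPM. Gna13 (chromosome 11, 109362831 to 109401369, mm10) had 225, 227 and 184 CPM in WT replicates 1 to 3 and 112, 96.4 and 91.6 CPM in the Gα13-deficient replicates. Its log2 fold change was -1.09 ± 0.11 (SE; edgeR adjusted p = 0.00102), so the groups were apart but Gna13 reads remained, in a count that covers the whole gene. Cd97 (the listed symbol of Adgre5) had 1497, 894 and 1288 CPM in WT and 1129, 1219 and 1015 CPM in Gα13-deficient libraries, and the groups overlapped (log2 fold change -0.13 ± 0.17, adjusted p = 0.706). Replicate 2 of each group had the female pattern, with Xist at 6754 and 6943 CPM and the summed Y-linked genes at 8.24 and 8.83 CPM. In the other 4 libraries Xist stood at 115 to 192 CPM and the Y-linked genes at 345 to 660 CPM, so sex was balanced over the groups. The labelled cell type had its markers in all 6 libraries, with H2-Ab1 at 4717 to 5962 CPM, Itgax at 1355 to 1922, Sirpa at 733 to 921, Flt3 at 513 to 685, Irf4 at 204 to 288 and Zbtb46 at 82.7 to 124 CPM. Of the markers of other cells, Cd3e reached at most 2.84 CPM and Ncr1 2.6 CPM, but others were read more. Emr1, listed for macrophages, ran from 154 to 324 CPM, and Clec9a, of type 1 conventional dendritic cells (cDC1s), from 18.2 to 81.6 CPM. Siglech, of plasmacytoid dendritic cells, ran from 9.60 to 74.8 CPM and Csf3r, listed for neutrophils, from 13.5 to 32.5 CPM. The macrophage gene Vcam1 ran from 60.6 to 516 CPM and was highest in WT replicate 2. The first principal component held 41.9% of the variance and separated the groups.

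Of the genes tested, 935 (7.78%) reached an adjusted p under 0.05 in the quasi-likelihood test of edgeR, 501 higher (4.17%) and 434 lower (3.61%) in Gα13-deficient cells. Called genes are named below as having risen or fallen. All 935 had no overlap between the 3 WT and the 3 Gα13-deficient libraries, as did 29.6% of all genes tested. Of the called genes 348 differed by less than 1.5-fold, 242 had a log2 fold change of at least 1 in size (147 higher, 95 lower) and 27 one of at least 2. The median log2 fold change was 0.77 among higher and -0.66 among lower genes. The call of 297 genes (164 higher, 133 lower) held in each of the 6 fits that left out 1 library, and 44 were called in none of them. Without Gα13-deficient replicate 2 the count was 340, without replicate 1 of that group 557, and without WT replicate 1 603. Without Gα13-deficient replicate 3, 281 genes were higher and 442 lower, so that more genes were lower than higher in that fit, and without WT replicate 3, 321 were higher. No gene called here was called in the opposite direction in any other setting tried.

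**Figure D1:**
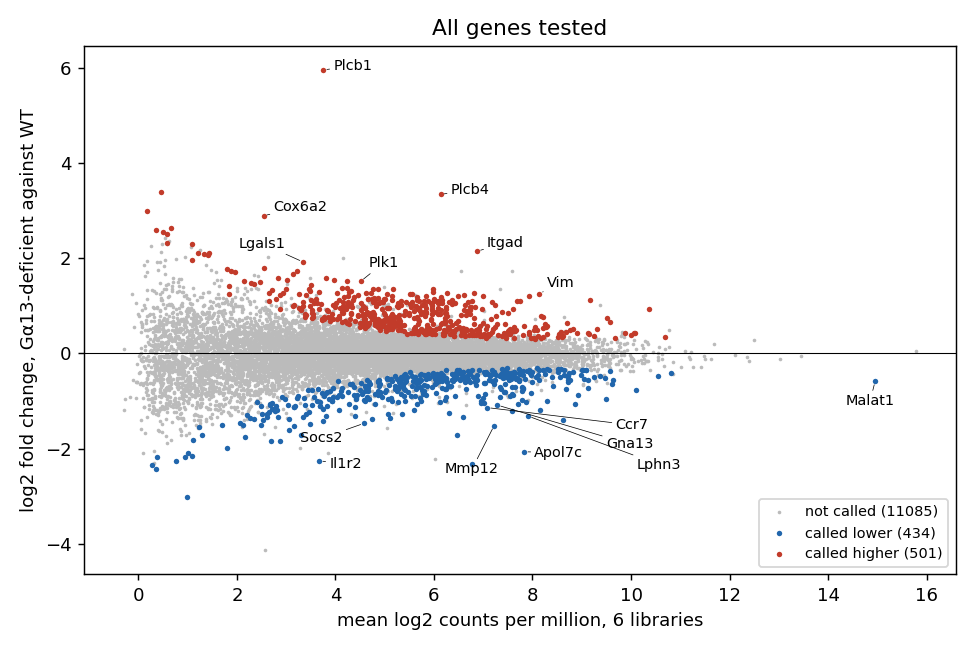
Log2 fold change of each of the 12020 genes tested (y axis, Gα13-deficient against WT) against its mean log2 CPM over the 6 libraries (x axis), 1 point a gene, with red for the 501 genes called higher, blue for the 434 called lower and grey for the rest. Plcb1 (5.95) stands farthest above 0, Plcb4 (3.34) stands apart at a higher level, and Malat1 (-0.58) lies at the far right.

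A pair of phospholipase C enzymes rose by more than any other gene with a mean log2 CPM of at least 2. Plcb1 and Plcb4 encode beta isoforms of phospholipase C, which cut a membrane phosphoinositide into inositol trisphosphate and diacylglycerol and are activated by alpha subunits of the Gq family. Plcb1 was read 3, 3 and 3 times in WT and 201, 183 and 328 times in Gα13-deficient libraries, or 0.325, 0.405 and 0.505 against 22.5, 31.7 and 23.4 CPM. Every WT library was thus at the level of a handful of reads, and every Gα13-deficient library far above it. The summed counts differed by 63.9-fold per library total (exact 95% interval 33.5 to 140, counting error only), and the fitted log2 fold change was 5.95 ± 0.31 (adjusted p = 1.70e-06). Plcb4 had 13.2, 15.4 and 8.59 CPM in WT and 129, 124 and 129 CPM in Gα13-deficient libraries, a log2 fold change of 3.34 ± 0.17 (adjusted p = 1.70e-06). Both calls held whichever library was omitted, and the 3 Gα13-deficient values of Plcb4 lay within a few CPM of each other.

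The 11 other phospholipase C genes tested were not called, so 2 of 13 members passed (15.4%, against 7.78% of all genes), both higher. The list's median log2 fold change was -0.08 against -0.01 over all genes. Plcb2, the beta isoform with the most reads in these libraries, had 364, 270 and 339 CPM in WT and 265, 269 and 240 CPM in Gα13-deficient libraries (-0.33 ± 0.11, adjusted p = 0.0949). Plcb3 had 9.54, 11.6 and 14.7 against 13.8, 11.9 and 12.8 CPM (0.12 ± 0.20, adjusted p = 0.776). Plcg2, the isoform downstream of immune receptors with tyrosine motifs, had 239, 215 and 228 against 277, 281 and 257 CPM (0.26 ± 0.09, adjusted p = 0.0938). The libraries of Plcg2, Plcb2 and Plcd3 (-1.28, adjusted p = 0.118) also lay apart by group, but none of these genes passed the test.

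Plcb1 and Plcb4 are neighbours on chromosome 2 (134786067 to 135475258 and 135659011 to 136014593, mm10), on the same strand and 183753 bases apart, with no other gene of the table between them. The nearest tested gene upstream, Tmx4, a thioredoxin-like membrane protein, had 49.2, 50.9 and 43.3 CPM in WT and 44.0, 42.6 and 57.3 CPM in Gα13-deficient libraries, a log2 fold change of 0.01. Farther downstream lies Jag1 (137081456 to 137116644), a Notch ligand, which fell from 49.1, 59.7 and 44.8 CPM to 29.9, 24.2 and 22.2 CPM (-1.01 ± 0.15, adjusted p = 0.00286). Bmp2, upstream of Tmx4, had 8.46, 6.48 and 3.37 against 2.80, 1.73 and 3.28 CPM and was not called (-1.20 ± 0.38, adjusted p = 0.0778). Of 9 other tested genes within 2 Mb on either side of Plcb1, 2 were called (22.2%, against 7.78% of all genes), Plcb4 and Jag1. The window and these neighbours were chosen after their values had been seen. Among tested genes of this window, only the adjacent pair rose.

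**Figure D2:**
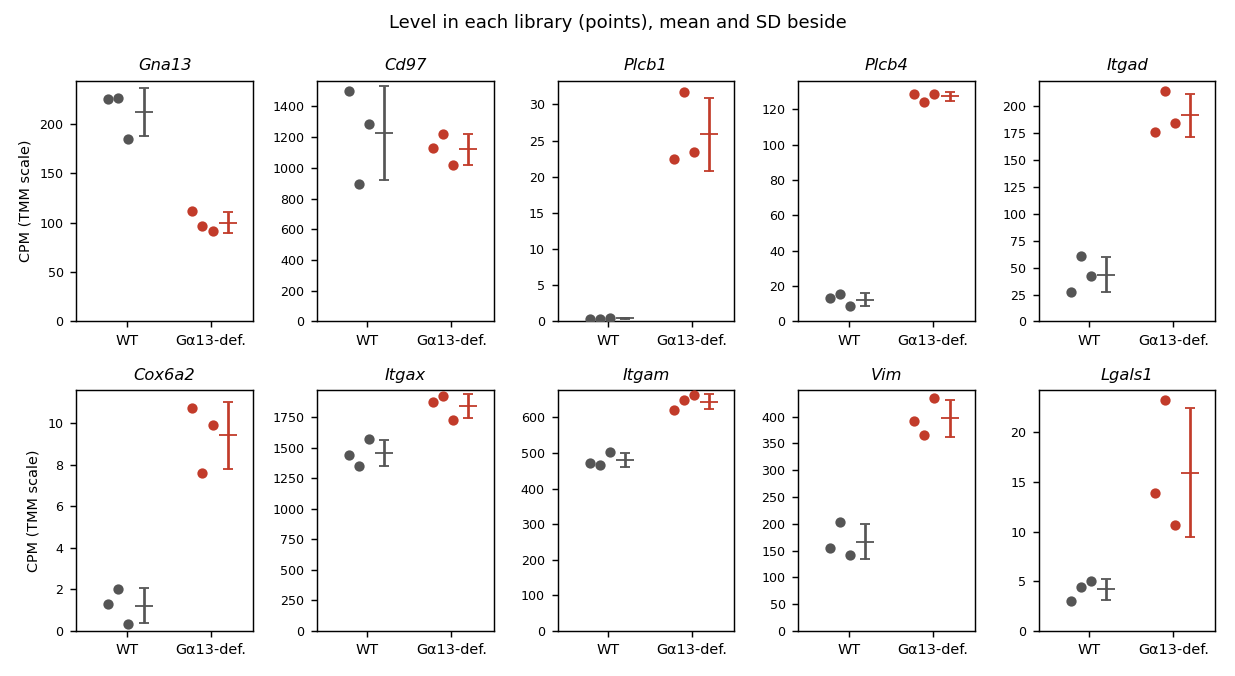
Level of 10 genes in each library (points; y axis, CPM on the TMM scale, from 0), with the mean and SD of the 3 libraries of each group beside them, WT in grey and Gα13-deficient in red. Gna13 is lower in all 3 Gα13-deficient libraries, Cd97 overlaps, and the other 8 genes are higher in all 3.

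Adjacent genes also rose around the gene whose promoter drives Cre. Itgax, Itgam and Itgad lie side by side on chromosome 7 and encode the alpha subunits CD11c, CD11b and CD11d, which pair with the beta-2 chain Itgb2 to form leukocyte integrins. Itgad (128154376 to 128223816, mm10) had 27.6, 60.4 and 41.9 CPM in WT and 176, 214 and 184 CPM in Gα13-deficient libraries, a log2 fold change of 2.15 ± 0.27 (adjusted p = 0.00662). Its lowest Gα13-deficient library was well above its highest WT library. Itgam (128062640 to 128118491) rose from 471, 465 and 504 to 620, 650 and 662 CPM (0.42 ± 0.08, adjusted p = 0.00971). Itgax (128129547 to 128150657) rose from 1444, 1355 and 1572 to 1873, 1922 and 1729 CPM (0.34 ± 0.09, adjusted p = 0.0404). The changes of Itgax and Itgam were thus of modest size beside that of Itgad. The call of Itgad held in all 6 fits without 1 library and that of Itgam in 5 (adjusted p = 0.0660 without Gα13-deficient replicate 2). Itgax was called in 1 of the 6 and reached an adjusted p of 0.192 without that same replicate.

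Cox6a2, which encodes an isoform of a cytochrome c oxidase subunit best known from muscle and also read in plasmacytoid dendritic cells, lies inside Itgad on the opposite strand. It had 1.30, 2.03 and 0.337 CPM in WT and 10.7, 7.62 and 9.91 CPM in Gα13-deficient libraries (2.89 ± 0.41, adjusted p = 0.00200). 4931431B13Rik, a further gene inside Itgad, had 3, 1 and 0 counts in WT and 16, 13 and 27 in Gα13-deficient libraries (3.40 ± 0.72, adjusted p = 0.0146), and was called in 5 of 6 fits without 1 library. The sources used here do not say whether counting was strand-specific, so reads of these genes and of Itgad cannot be told apart. The nearest tested genes with a name outside this group, Pycard on the side of Itgam and Armc5 on the other, were not called (0.30 and -0.02). Within 1 Mb of Itgax, 5 of 52 other tested genes were called (9.62%, near the 7.78% of all genes): Itgam, Itgad, Cox6a2, 4931431B13Rik and Spn. Spn, the sialomucin CD43 at the far edge of that window, rose from 43.3, 59.4 and 41.9 to 70.8, 80.8 and 105 CPM (0.83 ± 0.17, adjusted p = 0.0183) and lost its call in 3 of the 6 fits (adjusted p = 0.0802 without WT replicate 1). Next to Gna13, Amz2, a metalloprotease gene that begins 24577 bases after its end, rose from 23.4, 27.3 and 21.9 to 39.7, 33.9 and 40.5 CPM (0.66 ± 0.14, adjusted p = 0.0166) and was called in 3 of 6 fits without 1 library (up to 0.0655 without Gα13-deficient replicate 1). Amz2 was the only gene called of 9 others tested within 1 Mb of Gna13 (11.1%, against 7.78% of all genes). These windows were likewise chosen after the values had been seen.

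**Figure D3:**
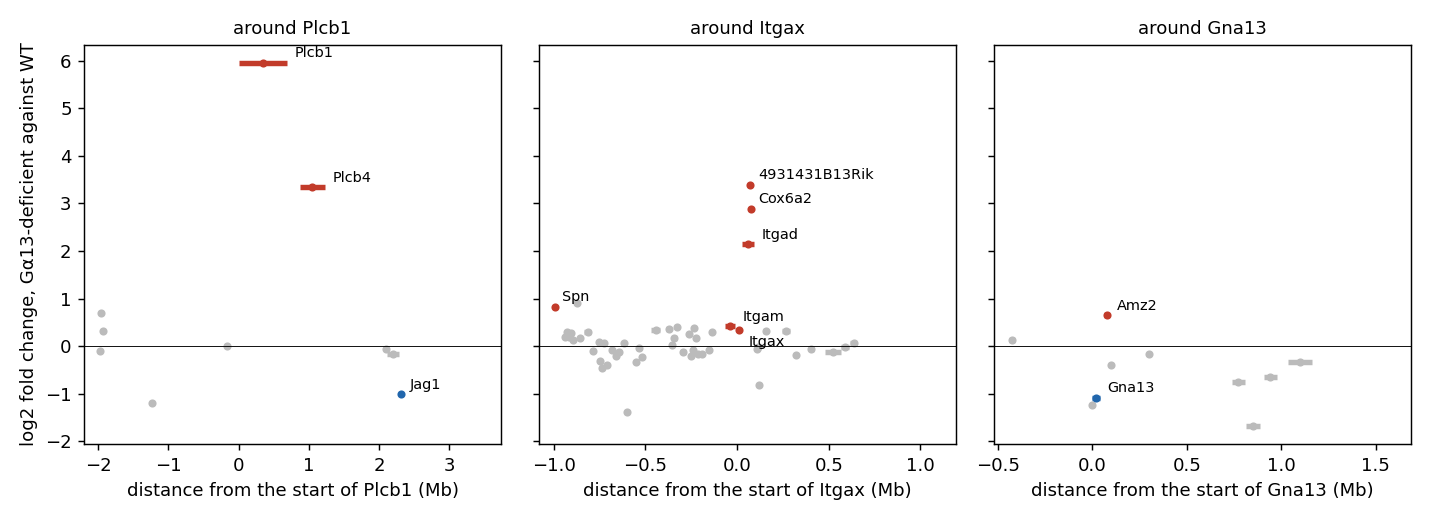
Log2 fold change (y axis, Gα13-deficient against WT) of tested genes around Plcb1, Itgax and Gna13, by distance from the start of each (x axis, Mb), with bars for the length of a gene and red, blue and grey for higher, lower and not called. Plcb1 and Plcb4 stand apart in the left panel, Itgad, Cox6a2 and 4931431B13Rik in the middle one, and Amz2 (0.66) lies next to Gna13 (-1.09) in the right one.

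Among all integrins, 4 of 19 tested members rose (21.1%, against 4.17% of all genes called higher) and none fell (median 0.30). Itgax, Itgam and Itgad, neighbours at a single locus, make up all but 1 of them. The fourth was Itgb7, the beta-7 chain that pairs with alpha-4 or alpha-E, from 153, 158 and 152 to 222, 227 and 211 CPM (0.51 ± 0.08, adjusted p = 0.00441). Its partner Itga4 was not called (-0.29 ± 0.11, adjusted p = 0.128; 0.0412 with the replicate number as a block), nor was Itgb2, the shared partner of Itgax, Itgam and Itgad (0.15 ± 0.09, adjusted p = 0.306). Itgal, the alpha chain of LFA-1, had 246, 223 and 227 against 280, 329 and 248 CPM (0.30 ± 0.11, adjusted p = 0.115). In the fit on the male-pattern libraries alone 2 integrins were called, and without Gα13-deficient replicate 2 also 2.

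The genes of the Gα13 pathway itself were mostly not called. Of 10 G protein alpha subunits tested, Gna13 fell and Gnas rose (20% called, against 7.78% of all genes). Gnas, which encodes the alpha subunit that stimulates adenylyl cyclase, went from 322, 415 and 351 to 488, 495 and 541 CPM (0.49 ± 0.10, adjusted p = 0.0146). It lost its call in 2 of 6 fits without 1 library (adjusted p = 0.0626 without Gα13-deficient replicate 2). Gna12, the other member of the same family, had 19.6, 21.2 and 17.3 against 16.9, 23.9 and 18.2 CPM (0.01 ± 0.18, adjusted p = 0.987). The Gq family members that act on phospholipase C beta were not called, with log2 fold changes of -0.25 ± 0.14 for Gnaq, 0.17 ± 0.17 for Gna11 and -0.17 ± 0.28 for Gna15. No RGS gene was called among 9 tested, whose log2 fold changes ran from -0.37 to 0.31.

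Of 27 RhoGEFs and receptors coupled to the G12 family, 2 rose and 3 fell (median -0.12), 18.5% called against 7.78% of all genes. Among the 3 RhoGEFs that Gα13 binds, Arhgef12 fell, from 33.2, 28.6 and 22.1 to 16.2, 15.6 and 11.9 CPM (-0.96 ± 0.19, adjusted p = 0.0116). Arhgef1, the main such RhoGEF of blood cells, stood at 252, 234 and 255 against 259, 265 and 251 CPM (0.06 ± 0.08), and Arhgef11 at 53.6, 51.7 and 43.4 against 59.6, 54.0 and 47.1 CPM (0.11 ± 0.13). Only Arhgef12 of the 3 was called. Emr1, the adhesion receptor known as F4/80, fell from 324, 275 and 239 to 190, 162 and 154 CPM (-0.73 ± 0.12, adjusted p = 0.00472). Gpr132, a receptor linked to lysophospholipids and lactate, fell from 280, 236 and 301 to 193, 168 and 144 CPM (-0.70 ± 0.12, adjusted p = 0.00620). The RhoGEFs that rose, Ect2 (1.01 ± 0.13) and Net1 (0.69 ± 0.16; 0.0862 without Gα13-deficient replicate 3), act outside this receptor route, and Ect2 is a cytokinesis protein that also belongs to the list of mitosis genes.

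Rhoa, the GTPase that these RhoGEFs load, had 209, 247 and 206 CPM in WT and 247, 276 and 306 CPM in Gα13-deficient libraries (0.32 ± 0.11, adjusted p = 0.0863). The kinases Rock1 (-0.06 ± 0.10) and Rock2 (-0.36 ± 0.19) and the formin Diap1 (0.14 ± 0.09) were not called. Cit (1.03 ± 0.14), the citron kinase of cytokinesis, and Diap3 (0.96 ± 0.22), another formin, rose. The actin-severing cofilins went in opposite directions, Cfl1 from 344, 443 and 433 to 520, 588 and 547 CPM (0.44 ± 0.11, adjusted p = 0.0273) and Cfl2 from 38.2, 34.6 and 43.4 to 26.0, 28.6 and 26.5 CPM (-0.52 ± 0.13, adjusted p = 0.0364). Each cofilin lost its call in most fits without 1 library, with an adjusted p of 0.143 for Cfl1 without Gα13-deficient replicate 2 and 0.110 for Cfl2 without Gα13-deficient replicate 1. Diap3 lost it in 3 of 6 (0.0967 without WT replicate 1). Of 36 RhoGAPs, which act opposite to RhoGEFs, 5 rose and 2 fell (19.4% called, against 7.78% of all genes). Racgap1, the cytokinesis partner of Ect2, rose by 1.02 ± 0.16 and Arhgap28 fell by 0.92 on the log2 scale, from 27.8, 34.8 and 35.2 to 16.9, 21.8 and 13.6 CPM (adjusted p = 0.0128).

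Several genes of the cytoskeleton and its filaments rose. Of 21 intermediate filament, galectin, annexin and S100 genes, 6 rose and none fell (median 0.36), 28.6% against 4.17% of all genes called higher. Vim, the intermediate filament vimentin, went from 155, 203 and 141 to 393, 365 and 434 CPM (1.26 ± 0.13, adjusted p = 0.00110). Lgals1, the secreted lectin galectin-1, went from 3.04, 4.46 and 5.05 to 13.9, 23.2 and 10.7 CPM (1.92 ± 0.32, adjusted p = 0.00503). Both were apart in every library. Anxa2, a membrane-binding annexin, rose from 71.9, 79.9 and 49.8 to 116, 124 and 117 CPM (0.82 ± 0.15, adjusted p = 0.00873). The lamins Lmnb1 (0.79 ± 0.17; 0.0720 without WT replicate 1) and Lmnb2 (0.94 ± 0.18; 0.0506 without Gα13-deficient replicate 2) also rose, whereas S100a4 (0.35 ± 0.12, adjusted p = 0.0990; 0.0374 with the replicate block) and Lgals3 (0.36 ± 0.16, adjusted p = 0.208) were not called.

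Of 35 targets of MRTF and SRF, 6 rose and 1 fell (median 0.23), 20% called against 7.78% of all genes. A positive log2 fold change was seen in 28 of 35, against 5890 of 12020 over all genes. Flna, the actin crosslinker filamin A, rose from 496, 611 and 529 to 856, 924 and 947 CPM (0.74 ± 0.10, adjusted p = 0.00154), and its call held in all 6 fits without 1 library. The other 5, the focal adhesion genes Vcl (0.48) and Zyx (0.40), the actin-binding genes Actn4 (0.49) and Tagln2 (0.78) and the myosin light chain Myl12a (0.41), each lost their call in at least 2 fits, with adjusted p up to 0.0698 for Vcl, 0.165 for Zyx and 0.176 for Myl12a without Gα13-deficient replicate 2 and 0.0723 for Actn4 without replicate 1. Without Gα13-deficient replicate 2 only 1 member was higher, and 3 were in the male-pattern libraries alone. Tagln2 reached an adjusted p of 0.118 without WT replicate 3. Tpm1, a tropomyosin that stabilises filaments, fell from 70.0, 73.9 and 80.3 to 51.6, 50.7 and 59.8 CPM (-0.46 ± 0.11, adjusted p = 0.0273; 0.117 without Gα13-deficient replicate 2). Actb had 4697, 5404 and 5482 against 6020, 6556 and 6442 CPM and did not pass (0.29 ± 0.09, adjusted p = 0.0703; 0.0301 with the replicate block). Srf (0.08) and Mkl1 (-0.07), the genes of the factor and of an MRTF, were close to 0.

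Genes of cell division rose in large number. Of 70 mitosis and cytokinesis genes 59 rose (84.3%) and none fell. Among 50 S phase and DNA replication genes 35 rose (70%) and none fell, against 4.17% of all genes called higher. The medians were 1.08 and 0.86. Both lists were written with earlier results of these data known. The mean log2 CPM of the mitosis list was 4.86, 5.23 and 4.71 in WT and 5.79, 6.04 and 6.12 in Gα13-deficient libraries, and that of the S phase list was 4.60, 4.92 and 4.66 against 5.33, 5.52 and 5.63. Both lists were thus higher in every Gα13-deficient library, and WT replicate 2 was the highest WT library in each. All 3 Gα13-deficient libraries were above all WT libraries for 66 mitosis and 43 S phase genes, against 15.5% of all genes. The calls of 41 mitosis and 22 S phase genes held whichever library was omitted. In bulk RNA a larger share of dividing cells and more RNA of these genes per cell cannot be told apart.

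Named members of both lists show the size of the change. Plk1, the kinase of mitotic entry and exit, went from 11.3, 13.8 and 9.77 to 29.0, 37.6 and 33.6 CPM (1.52 ± 0.18, adjusted p = 0.00111). Mki67, the proliferation marker, went from 962, 1034 and 738 to 1625, 1690 and 1911 CPM (0.93 ± 0.12, adjusted p = 0.00167). Foxm1, a transcription factor of G2 phase genes, went from 47.1, 52.4 and 38.7 to 89.5, 105 and 94.1 CPM (1.06 ± 0.13, adjusted p = 0.00111). These lay apart in all libraries. Rrm1, the large subunit of ribonucleotide reductase, went from 74.7, 81.8 and 71.1 to 132, 154 and 165 CPM (0.99 ± 0.11, adjusted p = 0.00110), and Mcm5, of the replicative helicase, from 40.5, 54.3 and 37.2 to 78.8, 94.7 and 100 CPM (1.05 ± 0.15, adjusted p = 0.00238). Pcna, the replication clamp, had 55.2, 64.9 and 48.0 against 66.3, 73.4 and 107 CPM and was not called (0.56 ± 0.18, adjusted p = 0.102). The clamp loader genes Rfc2 (0.34), Rfc3 (0.56), Rfc4 (0.48) and Rfc5 (0.31) were not called either, while 6 of 6 subunits of the helicase, Mcm2 to Mcm7, rose by 0.63 to 1.05. Mcm2 (0.0542) and Mcm3 (0.0509) lost their call without Gα13-deficient replicate 2.

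The genes that control entry into the cycle were mixed: of 28 CDK inhibitors, G1 cyclins and their partners 8 rose and 1 fell. This was 32.1% called, against 7.78% of all genes. Ccnd2, cyclin D2, fell from 198, 146 and 155 to 82.5, 80.8 and 81.2 CPM (-1.03 ± 0.12, adjusted p = 0.00111). Ccnd3, cyclin D3, rose from 53.8, 48.7 and 36.0 to 72.0, 82.7 and 71.5 CPM (0.70 ± 0.14, adjusted p = 0.0128; 0.0707 without Gα13-deficient replicate 2). Ccnd1, the D cyclin with the most reads here, stood at 1639, 1595 and 1533 against 1636, 1558 and 1507 CPM (-0.02 ± 0.08). The 3 D cyclins thus differed in direction, and 9330179D12Rik overlaps Ccnd2 on the opposite strand. The E2F repressors E2f7 (1.04 ± 0.19) and E2f8 (1.22 ± 0.18) rose. The inhibitors Cdkn2c (0.83 ± 0.17; 0.0597 without that replicate) and Cdkn2d (1.23 ± 0.21) rose, and Cdkn1a (0.15 ± 0.24) and Cdkn1b (0.01 ± 0.12) were not called. Myc had 45.3, 34.2 and 57.6 against 49.6, 47.9 and 48.1 CPM (0.09 ± 0.16, adjusted p = 0.783). Mxd3, a partner of Max in the Myc network, rose from 4.01, 4.19 and 4.21 to 11.3, 16.3 and 13.7 CPM (1.73 ± 0.23, adjusted p = 0.00161). It overlaps Prelid1 on the opposite strand.

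Promoters of mitosis genes often carry a cell cycle homology region, TTTGAA or TTCGAA, together with CCAAT boxes, and windows of 4 genes of that list that hold the motif are shown. The motif begins 30 bases before the start in Ckap2l, 23 in Top2a and 19 in Kif11, and 98 in Mki67, whose window holds no CCAAT. Each line gives the 100 bases before the start of the gene in RefSeq (GRCm38.p6), 5′ to 3′ on the strand of the gene. Capitals mark TTTGAA or TTCGAA and CCAAT on either strand, so that TTCAAA and ATTGG are their reverse complements.
Ckap2l (chr2:129297213-129297312, minus strand): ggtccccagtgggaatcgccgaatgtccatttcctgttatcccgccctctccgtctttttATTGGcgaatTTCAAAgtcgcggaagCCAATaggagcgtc
Mki67 (chr7:135716380-135716479, minus strand): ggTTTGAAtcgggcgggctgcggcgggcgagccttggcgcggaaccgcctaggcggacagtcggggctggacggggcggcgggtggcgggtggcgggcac
Top2a (chr11:99024190-99024289, minus strand): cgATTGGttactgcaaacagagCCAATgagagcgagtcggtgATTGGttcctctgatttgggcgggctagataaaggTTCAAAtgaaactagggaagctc
Kif11 (chr19:37376282-37376381, plus strand): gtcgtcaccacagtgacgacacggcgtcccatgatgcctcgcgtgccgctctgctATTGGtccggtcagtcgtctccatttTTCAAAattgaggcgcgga

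The 250 bases before the start were searched on both strands. TTTGAA or TTCGAA was found in 21 of 57 mitosis promoters that the table holds (36.8%), in 7 of 40 S phase promoters (17.5%), in 12.8% of the 9586 promoters of tested genes and in 17.5% of all 27024 promoters in the table. It was in 20.4% of the 334 promoters of genes called higher outside both division lists. CCAAT was found in 70.2% of mitosis and 62.5% of S phase promoters against 37.2% of tested genes and 34.5% of all. Both elements together were in 33.3% of mitosis promoters, 15% of S phase promoters, 5.09% of tested genes and 6.24% of all. The genes shown rose by 1.25 ± 0.16 (Ckap2l, a spindle protein), 0.93 ± 0.12 (Mki67), 1.12 ± 0.18 (Top2a, topoisomerase II alpha) and 1.20 ± 0.22 (Kif11, a spindle kinesin). Kif11 went from 153, 188 and 100 to 313, 314 and 385 CPM and lost its call in 4 of 6 fits (adjusted p = 0.131 without WT replicate 1) and with the replicate number as a block (0.0723). Top2a went from 386, 438 and 264 to 723, 755 and 893 CPM and lost it only without that WT library (0.0639). A match is a description of the letters and not of binding. The CArG box of SRF was in 16.1% of the 31 promoters of MRTF and SRF targets against 1.41% of all, and the NF-kB consensus in 33.3% of the 30 promoters of the NF-kB list against 3.74%.

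**Figure D4:**
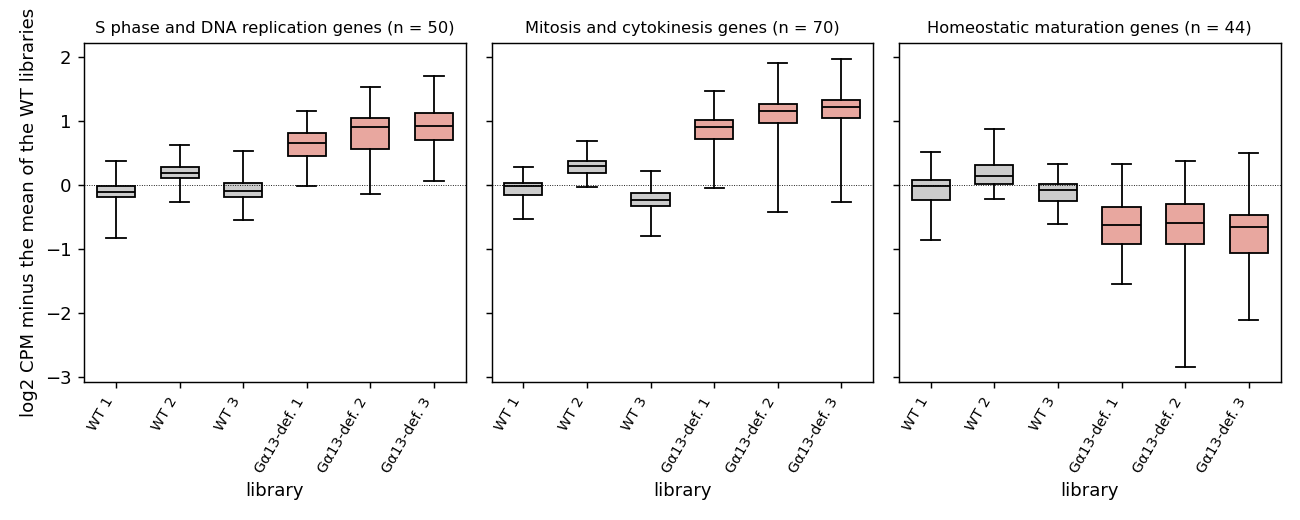
Difference in log2 CPM of each list member from the mean of the 3 WT libraries (y axis), as a box per library (x axis) with the median, quartiles and full range, for 50 S phase, 70 mitosis and 44 homeostatic maturation genes, WT in grey and Gα13-deficient in red. The boxes of both division lists lie above 0 in all 3 Gα13-deficient libraries and those of the maturation list below 0.

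Most genes of the homeostatic maturation list were lower in Gα13-deficient cells. Of 44 tested 24 fell and none rose (54.5%, against 3.61% of all genes called lower), and the median log2 fold change was -0.71. For 36 of them all 3 Gα13-deficient libraries lay below all WT libraries, against 14% of all genes. The list was written with earlier results of these data known, so its counts describe the list and are no independent support. The list's mean log2 CPM was 5.88, 6.11 and 5.82 in WT and 5.29, 5.29 and 5.12 in Gα13-deficient libraries. The call held in all 6 fits without 1 library for 14 of the 24. Ccr7 went from 173, 204 and 181 to 93.9, 97.8 and 63.2 CPM (-1.14 ± 0.16, adjusted p = 0.00251). Cd83, a stabiliser of surface MHC class II, went from 308, 330 and 331 to 188, 195 and 160 CPM (-0.84 ± 0.10, adjusted p = 0.00111). Tnfrsf11a, the receptor RANK, went from 93.2, 109 and 96.0 to 54.7, 55.2 and 48.2 CPM (-0.92 ± 0.11, adjusted p = 0.00111). These 3 lay apart with narrow spread. Socs2, a cytokine signalling inhibitor, went from 23.9, 42.7 and 39.1 to 11.8, 13.8 and 12.6 CPM (-1.47 ± 0.21, adjusted p = 0.00240).

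Apol7c had the largest fold change of the list, from 373, 412 and 323 to 127, 50.9 and 84.9 CPM (-2.07 ± 0.35, adjusted p = 0.0327). Its Gα13-deficient libraries were spread widely, and it lost its call in 4 of 6 fits without 1 library (0.128 without Gα13-deficient replicate 3) and with the replicate block (0.0648). H2-M2, a nonclassical MHC class I gene, went from 436, 766 and 505 to 221, 225 and 199 CPM (-1.40 ± 0.20, adjusted p = 0.00856). Ccl5, a chemokine (-0.94), Il15, a cytokine for NK and CD8 T cells (-1.09; 0.0998 without WT replicate 1), and Cd1d1, which presents lipids (-0.97), also fell. Of members not called, Fscn1, the actin bundler of mature dendritic cells, had a log2 fold change of -0.73 (adjusted p = 0.0657; 0.00571 with the replicate block), Relb of -0.43, Cd40 of -0.38, Ccl22 of 0.08 and Il12b of 0.29. Of the 44 members, 3 had a positive sign.

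Of 22 costimulatory and coinhibitory ligands 5 fell and none rose (median -0.29), 22.7% against 3.61% of all genes called lower. Cd80 fell from 106, 97.1 and 95 to 68.9, 65.6 and 65.0 CPM (-0.58 ± 0.10, adjusted p = 0.00472), and Cd86, its partner as a CD28 ligand, had 123, 117 and 97.8 against 79.4, 94.2 and 81.7 CPM and did not pass (-0.41 ± 0.12, adjusted p = 0.0509). With the replicate number as a block Cd86 passed (0.0388). The others that fell were Pdcd1lg2 (-0.68), Tnfsf8 (-0.72), Icosl (-0.34) and Cd274 (-0.34). Tnfsf8 (0.138 without Gα13-deficient replicate 1) and Icosl (0.0890 without replicate 3) were each called in 1 of 6 fits. Cd274, the ligand PD-L1, was called in none of them (up to 0.113 without Gα13-deficient replicate 2).

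Of 36 NF-kB pathway genes and targets 8 fell and 1 rose (median -0.17), 25% called against 7.78% of all genes. Birc2, an inhibitor of noncanonical NF-kB signalling, fell from 283, 247 and 227 to 121, 123 and 169 CPM (-0.87 ± 0.14, adjusted p = 0.00433), and Traf1, an adaptor of TNF receptors, from 522, 486 and 494 to 349, 341 and 335 CPM (-0.55 ± 0.08, adjusted p = 0.00226). Nfkb1, the gene of p105 and p50, rose from 476, 560 and 525 to 672, 788 and 777 CPM (0.52 ± 0.10, adjusted p = 0.00806; 0.0597 without Gα13-deficient replicate 2). The other subunit genes were not called: Relb (-0.43, adjusted p = 0.0643), Rel (-0.38, adjusted p = 0.0703), Nfkb2 (-0.09) and Rela (0.05). With the replicate block Relb (0.0436) and Rel (0.0168) passed. Nfkbia, an early NF-kB target, had 79.2, 97.9 and 67.0 against 67.3, 60.9 and 74.5 CPM (-0.27 ± 0.14).

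Of 12 tested genes of the interleukin 1 family 4 fell and 1 rose (median -0.23), 41.7% called against 7.78% of all genes. The family includes secreted cytokines, signalling receptors, a decoy receptor and a receptor antagonist. Among the cytokines, Il1b fell from 261, 187 and 201 to 140, 123 and 110 CPM (-0.80 ± 0.14, adjusted p = 0.00572) and Il18 from 26.0, 33.4 and 27.1 to 11.4, 17.5 and 11.6 CPM (-1.12 ± 0.20, adjusted p = 0.00575), both in all 6 fits without 1 library. Il1r2, the decoy receptor, fell from 30.6, 9.59 and 22.6 to 5.26, 3.46 and 4.28 CPM (-2.26 ± 0.41, adjusted p = 0.0152; 0.0785 without Gα13-deficient replicate 2), with a wide spread in WT. Il18rap, a chain of the IL-18 receptor, fell from 4.99, 7.16 and 5.73 to 2.35, 1.9 and 2.14 CPM (-1.46 ± 0.32, adjusted p = 0.0171; 0.0660 without that replicate). Il1rn, the receptor antagonist, rose from 10.1, 17.4 and 8.76 to 29.4, 22.2 and 24.8 CPM (1.07 ± 0.24, adjusted p = 0.0215) and was called in 1 of the 6 fits (up to 0.0789 without Gα13-deficient replicate 1). Casp1, which cuts the precursors of Il1b and Il18, had a log2 fold change of -1.02 and was not called.

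Of 29 immediate early genes, which respond fast to stimulation, 3 rose and 1 fell (median 0.26), 13.8% called against 7.78% of all genes. Klf4 rose from 46.3, 52.4 and 48.0 to 101, 94.3 and 82.9 CPM (0.92 ± 0.11, adjusted p = 0.00115), and Klf2, a related factor that promotes quiescence and expression of trafficking receptors in lymphocytes, from 54.1, 55.9 and 61.6 to 115, 72.3 and 88 CPM (0.69 ± 0.15, adjusted p = 0.0216; 0.0823 without WT replicate 1). Fos (1.35), Fosb (1.74), Jun (0.73) and Egr1 (0.77) were not called, and Jun was with the replicate block (0.0391). The summed level of the list was 5186, 4671 and 3461 CPM in WT and 6812, 4746 and 4963 CPM in Gα13-deficient libraries, so the groups overlapped.

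Of 24 receptors of migration and positioning, 1 fell (Ccr7) and 1 rose, 8.33% called and near the 7.78% of all genes. Cx3cr1, the receptor of fractalkine and a marker of a cDC2 subset, rose from 4.88, 15.8 and 8.08 to 26.5, 28.2 and 27.8 CPM (1.53 ± 0.36, adjusted p = 0.0395) and was called in 2 of 6 fits without 1 library (up to 0.122 without WT replicate 3). Monocyte and neutrophil markers, of which Cx3cr1 is not a listed member, had a higher mean log2 CPM in the same libraries. Their summed levels overlapped and none of the 9 tested was called, as given with the other marker lists. The oxysterol receptor Gpr183 (-0.09), which places cDC2s in bridging channels of the spleen, and the sphingosine phosphate receptor S1pr1 (0.69), at 0.168 to 3.28 CPM, were not called. Nor were Cxcr4 (0.63; adjusted p = 0.0112 with the replicate block), Ccr6 (0.15) and Ccr2 (0.82).

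**Figure D5:**
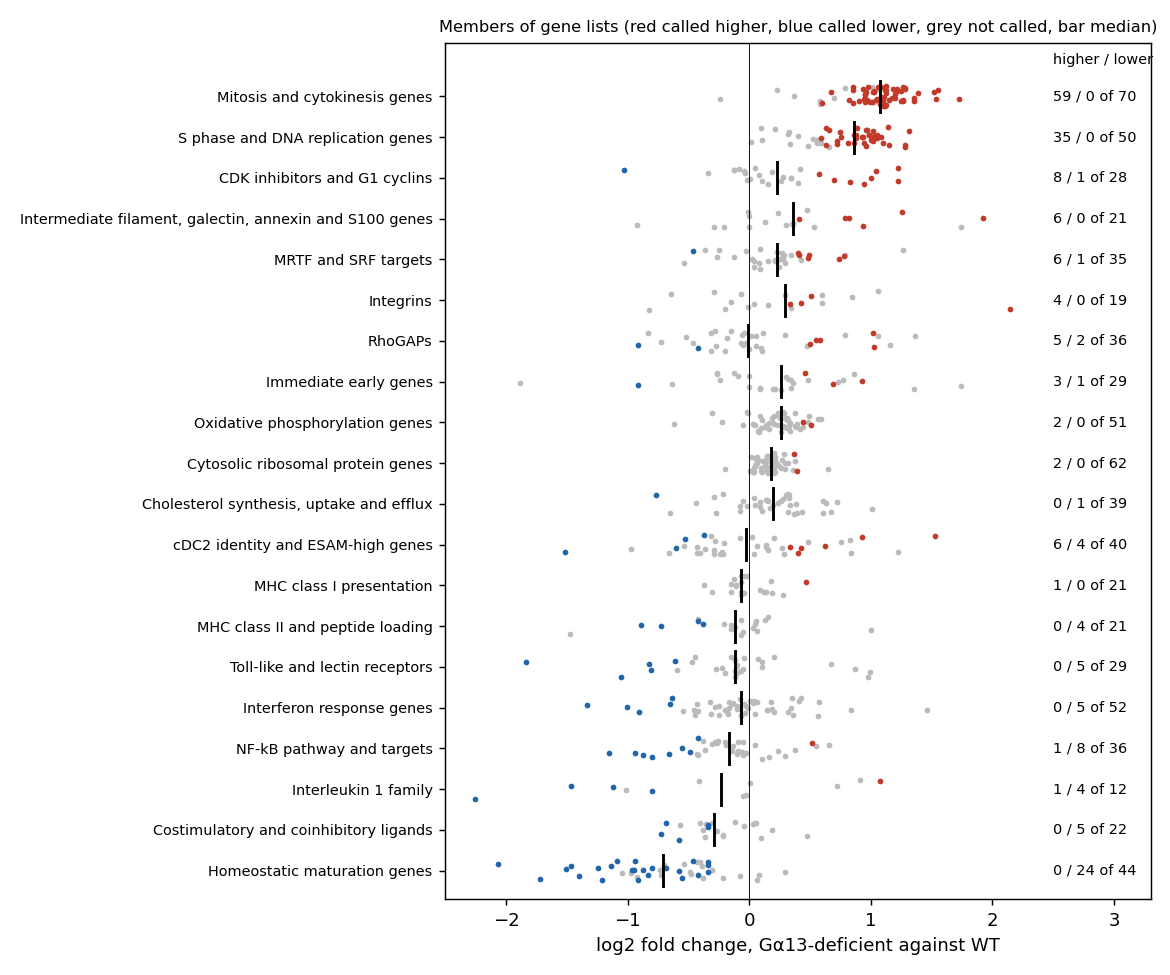
Log2 fold change (x axis, Gα13-deficient against WT) of each tested member of 20 gene lists (rows), with red, blue and grey for higher, lower and not called, a black bar for the median and the counts of members higher and lower at the right. The mitosis (59 of 70 higher) and S phase lists (35 of 50 higher) lie to the right and the homeostatic maturation list (24 of 44 lower) to the left.

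Of 21 MHC class II and peptide loading genes 4 fell and none rose (19.0%, against 3.61% of all genes called lower): H2-Eb2 from 221, 242 and 262 to 137, 125 and 129 CPM (-0.89 ± 0.09, adjusted p = 0.00102), H2-Ob (-0.72 ± 0.14), H2-Oa (-0.42 ± 0.11) and the transcription factor Rfx5 (-0.38 ± 0.09). H2-Oa and H2-Ob form H2-O, which restrains the peptide exchanger H2-M. H2-Ob lost its call in 3 of 6 fits (0.0757 without WT replicate 1), and H2-Oa and Rfx5 in 4 each (0.113 and 0.0914 without Gα13-deficient replicate 2). The classical H2-Ab1 had 5962, 5295 and 5725 against 5554, 4717 and 5001 CPM (-0.15 ± 0.09, adjusted p = 0.338), Cd74, the invariant chain, had a log2 fold change of -0.05 and Ciita of -0.21. Of 21 genes of the MHC class I presentation list 1 rose (4.76%, against 7.78% of all genes called), the chaperone Calr (0.47 ± 0.12; 0.117 without Gα13-deficient replicate 2). H2-M2, a nonclassical class I gene that fell (-1.40), is not a member of that list. Of 32 cathepsin and lysosome genes 1 fell (3.1%, against 7.78% of all genes called), Cd63 (-0.79 ± 0.21; 0.118 without Gα13-deficient replicate 2).

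Within the interferon response list 5 of 52 genes fell and none rose (median -0.07), 9.62% against 3.61% of all genes called lower. All 5 were guanylate-binding proteins, GTPases of cell-autonomous defence. Gbp4 fell from 153, 109 and 149 to 63.6, 49.8 and 49.4 CPM (-1.34 ± 0.15, adjusted p = 0.00111), Gbp8 from 370, 278 and 287 to 155, 137 and 172 CPM (-1.01 ± 0.13, adjusted p = 0.00139) and Gbp9 from 223, 192 and 220 to 120, 97.4 and 120 CPM (-0.91 ± 0.11, adjusted p = 0.00111). Gbp5 (-0.65 ± 0.17) and Gbp2 (-0.63 ± 0.18) fell less and lost their calls in 4 and 5 of 6 fits without 1 library (0.153 for Gbp5 without WT replicate 1 and 0.155 for Gbp2 without Gα13-deficient replicate 2). Gbp7 (-0.32) and Gbp3 (0.03) were not called. Gbp4, Gbp8 and Gbp9 overlap on chromosome 5 and are close paralogs, so their reads may be shared and the values are uncertain. Members not called ranged from -0.54 (Rsad2) to 1.46 (Ifi205), with -0.32 for the RNA sensor Ifih1 (adjusted p = 0.0529), -0.07 for Isg15, 0.15 for Mx1 and 0.18 for Irf7. Of the 52 members, 12 had all 3 Gα13-deficient libraries below all WT libraries, against 14% of all genes, and 4 had them above, against 15.5%.

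Of 40 genes of cDC2 identity 6 rose and 4 fell (median -0.03), 25% called against 7.78% of all genes. Klf4 (0.92) and Itgam (0.42), given with other lists, were among those that rose. Mmp12, an elastase, fell most, from 224, 191 and 248 to 72.9, 61.6 and 95.6 CPM (-1.52 ± 0.16, adjusted p = 0.00111). Csf2rb, the shared receptor chain for GM-CSF, fell from 520, 494 and 514 to 376, 325 and 304 CPM (-0.60 ± 0.09, adjusted p = 0.00330). Irf4, a factor that cDC2s need, fell from 258, 285 and 288 to 228, 210 and 204 CPM (-0.37 ± 0.09, adjusted p = 0.0269; 0.114 without Gα13-deficient replicate 2). Esam, the marker of the Notch2-dependent subset, fell from 35.8, 37.8 and 45 to 30.8, 26.0 and 25.1 CPM (-0.53 ± 0.14, adjusted p = 0.0419) but was called in none of the 6 fits (up to 0.147 without that replicate). Cd4, carried by most of the same subset, had 819, 527 and 566 against 477, 389 and 342 CPM and did not pass (-0.66 ± 0.19, adjusted p = 0.0772), and passed with the replicate block (0.00174). Notch2 (0.07) and Clec4a4 (-0.20) were not called. Tbx21, the factor T-bet that marks another cDC2 subset, rose from 14.7, 16.2 and 14.1 to 22.1, 26.0 and 21.7 CPM (0.62 ± 0.16, adjusted p = 0.0349; 0.154 without Gα13-deficient replicate 2).

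Of 29 Toll-like and lectin receptors 5 fell and none rose (17.2%, against 3.61% of all genes called lower). Nod2, a sensor of bacterial muropeptides, fell from 29.8, 21.6 and 26.3 to 13.1, 11.4 and 12.8 CPM (-1.05 ± 0.17, adjusted p = 0.00431), and Ly75, the endocytic receptor DEC-205, from 58.0, 55.1 and 54.9 to 34.9, 34.1 and 27.2 CPM (-0.81 ± 0.13, adjusted p = 0.00345). Tlr7, which senses single-stranded RNA, fell by 0.61 on the log2 scale and Tlr11, which senses profilin, by 0.83 (0.0622 and 0.113 without Gα13-deficient replicate 2). Cd209b, a lectin of marginal zone macrophages, was low throughout, at 14.9, 5.94 and 8.42 against 4.37, 1.21 and 2.42 CPM (-1.83 ± 0.45, adjusted p = 0.0339; 0.125 without Gα13-deficient replicate 3).

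By the rule for the largest changes held in every fit without 1 library, the genes that fell included Dnajc22 (-1.85), Sema3f (-1.76), Trim6 (-1.61), Slc12a3 (-1.48), Stap2 (-1.41), Cd101 (-1.37) and Hpgds (-1.35). Cd101, an inhibitory surface protein, went from 49.2, 24.6 and 40.9 to 14.8, 14.5 and 15 CPM, and Hpgds, which makes prostaglandin D2, from 59.2, 41.2 and 48.2 to 19.7, 22.3 and 16.9 CPM. Lphn3, Adam23 and Adam22 were among the genes with the smallest p-values. Lphn3, an adhesion G protein-coupled receptor, fell from 352, 295 and 385 to 129, 152 and 133 CPM (-1.32 ± 0.11, adjusted p = 0.000249). Adam23 went from 1435, 1271 and 1437 to 815, 845 and 785 CPM (-0.76 ± 0.09, adjusted p = 0.00111), and Adam22 from 264, 257 and 223 to 149, 131 and 134 CPM (-0.85 ± 0.10, adjusted p = 0.00111). Adam22 and Adam23 encode metalloproteinase-like proteins without protease activity that bind LGI proteins. The genes that rose by the same rule included Padi2 (1.66), a protein arginine deiminase, Nccrp1 (1.58) and Aff3 (1.36).

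Most of the other genes with a log2 fold change of at least 2 in size were near the limit of detection. Alox5, the 5-lipoxygenase of leukotriene synthesis, had 0.325, 0.540 and 0.168 CPM in WT and 2.69, 2.77 and 1.5 CPM in Gα13-deficient libraries (2.63 ± 0.61, adjusted p = 0.0229; 0.0829 without Gα13-deficient replicate 2). Olfr109, listed as an olfactory receptor and lying next to H2-M2 on chromosome 17, had 2.82, 4.05 and 3.03 against 0.560, 0.519 and 0.214 CPM (-3.01 ± 0.53, adjusted p = 0.00601), in all 6 fits. The others called higher were Dyrk3, Pla2g4c, Tbx3, Plb1, Xylt1, Epha2, Capg and Serpinb8, and those called lower Rab39b, Nat14, Snord118, Zfr2 and Dscaml1, none of them called in all 6 fits. Snord118 was called in none of the 6 (up to 0.129 without Gα13-deficient replicate 1), and the replicate block took its adjusted p to 0.0528. Such fitted values depend on the prior count of the model.

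Metabolic and housekeeping lists had few called members, though most of their genes were slightly above 0. Of 51 oxidative phosphorylation genes 2 rose, Atp5b (0.44) and Ndufa4 (0.50), while 45 had a positive sign (median 0.26) and 23 had all 3 Gα13-deficient libraries above all WT libraries, against 15.5% of all genes. Of 62 cytosolic ribosomal protein genes 2 rose, 61 had a positive sign (median 0.18) and 33 had the Gα13-deficient libraries above all WT libraries. The mean log2 CPM of the ribosomal list was 7.23, 7.33 and 7.30 against 7.49, 7.44 and 7.44, and that of the oxidative phosphorylation list 4.93, 5.12 and 5.15 against 5.21, 5.31 and 5.34, so neither overlapped between the groups. Of 22 glycolysis genes 3 rose (13.6%, against 4.17% of all genes called higher), Gapdh (0.57), Pkm2 (0.44) and Ldha (0.33). Of 32 unfolded protein response and heat shock genes 2 rose, Pdia6 and Creld2 (0.57 each). Of 39 cholesterol genes 1 fell, Mylip, which degrades the LDL receptor (-0.76 ± 0.14, adjusted p = 0.00731). Without Gα13-deficient replicate 2, Atp5b (0.0869), Ndufa4 (0.126), Pkm2 (0.0753), Ldha (0.143) and Pdia6 (0.112) were not called, and Creld2 was called in none of the 6 fits. Shares of called members in these lists other than glycolysis, 2.56% to 6.25%, were near or below the 7.78% of all genes. Among 13 nuclear noncoding RNAs and factors of nuclear RNA decay 3 fell (23.1%, against 3.61% of all genes called lower). These were Malat1, a nuclear noncoding RNA, from 42601, 35779 and 35933 to 26357, 25098 and 24788 CPM (-0.58 ± 0.09, adjusted p = 0.00289), Neat1 (-0.57 ± 0.10) and Zfc3h1, a scaffold of nuclear RNA decay, from 673, 653 and 550 to 332, 329 and 364 CPM (-0.87 ± 0.10, adjusted p = 0.00110).

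In the BCL2 family of 17 tested genes, the survival gene Bcl2 rose from 17.2, 20.3 and 22.9 to 30.7, 33.2 and 37.0 CPM (0.75 ± 0.16, adjusted p = 0.0133; 0.0569 without Gα13-deficient replicate 2). The proapoptotic Bmf fell from 80.9, 81.2 and 84.7 to 63.0, 50.7 and 50.6 CPM (-0.59 ± 0.11, adjusted p = 0.0101; 0.0592 without that replicate). Bcl2a1a (-0.70) and Bcl2a1b (-0.46), prosurvival copies of 1 gene family whose reads may be shared, fell as well (0.127 without Gα13-deficient replicate 1 and 0.110 without replicate 2).

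Markers of other cells were checked as lists. The summed level of splenic macrophage markers was 1116, 2120 and 818 CPM in WT and 1342, 1583 and 1114 CPM in Gα13-deficient libraries. Emr1 and Cd209b fell, 2 of 24 (8.33%, against 3.61% of all genes called lower), while 16 of the 24 had a positive sign (median 0.13). For plasmacytoid dendritic cell markers the sums were 922, 1118 and 902 against 1237, 966 and 1096 CPM. Of these, 4 of 19 rose (21.1%, against 4.17% of all genes called higher): Cox6a2, Tcf4 (0.40), Ly6d (1.53) and 2210020M01Rik (1.72). The last 3 lost their call without Gα13-deficient replicate 1 (0.150, 0.128 and 0.117). A positive sign was seen in 17 of the 19 (median 0.40), and the mean log2 CPM was 3.65, 4.19 and 3.52 against 4.76, 4.17 and 4.46. Siglech, a defining marker of those cells, had 15, 26.6 and 9.60 against 74.8, 22.7 and 37.2 CPM and was not called (1.39 ± 0.60, adjusted p = 0.257). The sums of both lists overlapped between the groups. For cDC1 markers the sums were 2420, 2442 and 2514 against 2371, 2457 and 2464 CPM, with Xcr1 (1.22; 0.0622 without Gα13-deficient replicate 2), Cd24a (1.35) and Naaa (0.83) higher and Tlr11 lower. These sums overlapped as well, and 22.2% of the 18 members were called, against 7.78% of all genes. Irf8 lay higher in all 3 Gα13-deficient libraries but was not called (1.225 ± 0.301, adjusted p = 0.0578; 0.0481 with the sex pattern as a covariate). Batf3 lay lower in all 3 and was not called (-0.43 ± 0.13, adjusted p = 0.0648; 0.0399 with the replicate block). Clec9a, which marks cDC1s, had 20.7, 64.1 and 18.2 against 81.6, 42.9 and 77.5 CPM. T and NK cell markers, of which 6 of the 16 in the table were tested, summed to 36.0, 55.9 and 36.0 against 68.7, 58.5 and 72.8 CPM, and Klrk1 rose (0.97 ± 0.19). Their defining genes Cd3e, Cd3d, Lck and Ncr1 were at or under 3.25 CPM in every library. The T and NK cell sums did not overlap between the groups and were higher in Gα13-deficient libraries, as were the division genes, and their part in that result was not tested. Plasma cell markers had a mean log2 CPM of 4.44, 4.51 and 3.83 against 4.29, 4.08 and 4.24, which overlapped. Their summed levels did not, at 392, 421 and 431 CPM in WT and 363, 338 and 325 CPM in Gα13-deficient libraries. Irf4, which is also a cDC2 gene, was the only member called of 5 tested (20%, against 7.78% of all genes). Monocyte and neutrophil markers had a mean log2 CPM of 4.41, 4.67 and 4.07 in WT and 5.15, 4.74 and 4.93 in Gα13-deficient libraries, so the groups did not overlap, though their summed levels did (513, 573 and 363 against 697, 570 and 536 CPM). None of the 9 tested was called, and the median was 0.53. Ly6c2, a monocyte surface protein, had 1.19, 4.46 and 1.01 against 13.8, 3.81 and 9.41 CPM (2.03 ± 0.63, adjusted p = 0.0968), and Ace, of nonclassical monocytes, 28.5, 40.5 and 17.3 against 74.9, 52.3 and 48.3 CPM (1.01 ± 0.31, adjusted p = 0.107; 0.0208 with the replicate block). Itgam, Cx3cr1, Vim and Lgals1 were higher in the same libraries, and the part of these markers in their rise was not tested. The summed levels of B cell markers and of red cell and platelet markers overlapped between the groups.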

How the data were processed

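RNA-seq libraries of splenic cDC2s were compared, 3 of WT and 3 of Gα13-deficient mice. The values used are raw gene counts as deposited by the authors. Per the submitters' processing notes, STAR, HTSeq and DESeq2 were used with mm10; versions and settings are not given in the sources used here, and no gene in the deposited table has fewer than 10 counts over the 9 libraries of the series. The table has 0 columns that belong to no sample. Genes with at least 1 CPM in 3 or more of the 6 libraries were fitted with edgeR 4.0.16 (R 4.3.3, limma 3.58.1; TMM scaling, quasi-likelihood F-test, group as the only term), and p-values were adjusted by Benjamini and Hochberg over all 12020 genes at a threshold of 0.05 whatever the fold. CPM are on the TMM scale, and SE is the log2 fold change divided by the square root of F. The fit was tested on simulated data.

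The members, gene lists and windows were chosen with earlier results of these data known. Genes named are Gna13 and Adgre5, every called gene with a log2 fold change of at least 2 in size, the 12 largest per direction with a mean log2 CPM of at least 2, no overlap and a call whichever library was omitted, the 10 smallest p per direction, and in each list up to 6 members with the smallest p, with all G protein alpha subunits, phospholipase C enzymes and integrins. Ribosomal protein genes, pseudogenes and symbols of the Gm or Rik type entered counts only, except within their own list or as neighbours. Other genes named as neighbours, as partners in a pathway or as members that were not called were chosen after their values had been seen. Coordinates come from GENCODE mouse release 21 (12799 symbols matched directly, 1219 by a synonym, 191 unmatched), and promoters from RefSeq. In that annotation the called genes Gna13, Amz2, Gnas, Cfl1, Vcl, Zyx, Actn4, Myl12a, Mcm7, Ccnd2, Ccnd3, Mxd3, Pdcd1lg2, Il1b, Il18, Il1r2, Cx3cr1, H2-Oa, Gapdh, Pdia6 and 2210020M01Rik also overlap a gene on the opposite strand, whose reads cannot be told apart from theirs where counting ignores strand.

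Replicate numbers come from the sample titles; the count table numbers the WT libraries differently, and by its numbers WT replicates 1 and 2 would go with Gα13-deficient replicates 2 and 3 (correlations of -0.118 and -0.0548). Deviations from the group mean correlated at 0.101 to 0.178 between same-numbered libraries and at -0.118 to -0.0137 between others. These values are small, deviations cancel within a group, and replicate 2 had the female pattern in each group. They therefore do not settle whether the libraries were paired. The main fit holds no block, and the fit with the title number as a block is given beside results whose call it changes. Alternatives were RLE size factors, library totals, no filter, a minimum of 5 CPM, DESeq2 1.42.0, the block, the sex pattern as a covariate, male-pattern libraries alone and each library left out. Some items are not reported here.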

Additional observations from a re-analysis of the deposited data

How the results depend on the processing

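The number of genes called ranged from 340 to 1163 with 1 library left out, that of higher genes from 185 to 677 and that of lower genes from 155 to 486. Over the same fits 1 to 5 MRTF and SRF targets, 2 to 4 integrins, 22 to 34 S phase genes and 44 to 63 mitosis genes were higher, and 16 to 23 maturation genes lower. In the male-pattern libraries alone, a fit of 4 libraries, 606 genes were called, 223 of them lower, with 3 MRTF and SRF targets and 2 integrins higher. With the replicate number as a block (pairing of same-numbered libraries) 1190 genes were called, 597 higher and 593 lower, and 909 of the 935 kept their call; 9 MRTF and SRF targets, 36 S phase and 59 mitosis genes were higher and 28 maturation genes lower. Of 160 genes both named by the rule and called, 158 kept their call with the block, and Apol7c and Snord118 lost it. The block gave a call to 16 other genes named by the rule, and beyond these and the calls given beside their genes it changed none of the calls described. DESeq2 called 1208 genes, library totals 998 (62.4% of them higher, against 53.6%), RLE size factors 955, no filter 996 and a minimum of 5 CPM 937. With the sex pattern as a covariate 915 were called, and 827 of the 935 kept their call. All 935 kept their sign in every setting in which they were tested. Genes with few counts are limited by depth: 3 counts were 0.216 to 0.528 CPM.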

Other observations

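Xist was read in the 4 libraries with a male pattern at 115 to 192 CPM, which is 1.68% to 2.80% of its mean level in the female-pattern libraries, and the Y-linked genes were read in the female-pattern libraries at 8.24 and 8.83 CPM. Cr2, the complement receptor CD21 of B cells, was the only B cell marker called, at a log2 fold change of -1.19 (adjusted p = 0.0178; 0.0708 without Gα13-deficient replicate 2).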
